A study of Mus musculus with 4 samples.

Results

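The 4 genes described here encode the chemokines Cxcl1, Cxcl10 and Ccl3 and the adhesion molecule Vcam1. They were taken by name from the 84 genes of an RT-PCR array for mouse nephrotoxicity, and all 4 were on it. The RNA came from MCT, a mouse epithelial cell line that the labels place in the convoluted tubule of the kidney. Each of 4 conditions had 1 sample. They were control cells without treatment, cyclosporine A (CsA, the calcineurin inhibitor, at 10 μg/ml), 11R (the cell-permeable NFAT inhibitor peptide 11R-VIVIT, at 1 μM) and SB203580 (a p38 MAPK inhibitor, at 10 μM). The study's methods give 24 h of treatment for these doses. The array asked which nephrotoxicity genes respond to CsA and to p38 inhibition, with 11R-VIVIT as the direct block of NFAT. From a gene array the paper names Ccl3, Cxcl10 and Vcam1 among genes raised by both CsA and SB203580 and not altered by 11R-VIVIT. Its methods take the housekeeping genes of the array as reference, whereas the values below use Actb alone, and those with CsA differ in direction from that statement. All conditions share the same cell line and medium. With 1 sample each, the values have no replicate error, and differences are given by their size without a test. Markers of the kidney tubule were detected in part. Of 11 such genes in the list used here, the array held 4, and their Ct in untreated cells was 27.14 for Lcn2, 30.996 for Havcr1, 33.03 for Slc22a6 and 36.08, past the detection limit, for Calb1. None of the 5 leukocyte and 3 endothelial markers of the list was on the array, so other cells in the culture were not assessed.

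Chemokines are small secreted proteins that draw leukocytes along a gradient. Cxcl1 binds Cxcr2 and attracts mainly neutrophils. Cxcl10 binds Cxcr3 and attracts activated T cells and NK cells, and its gene is a classical target of interferon. Ccl3, also known as MIP-1α, attracts monocytes and macrophages. Vcam1 is a membrane protein that holds leukocytes through the integrin α4β1. Injured tubule cells are known to produce several of these molecules, and NF-κB is a well-known activator of their genes. Neither the receptors nor the integrin genes named in the list used here were on the array, so the values cover ligands and 1 adhesion molecule.

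The stretches upstream of the transcription start are shown because the chemokine genes differ in the sites for these factors. RefSeq promoters of build GRCm38.p6 matched 3 of the 4 genes by symbol, namely Cxcl1, Cxcl10 and Ccl3. Each line gives the 250 bases before the start, 5′ to 3′ on the strand of the gene. Capitals mark matches to the NF-κB consensus, to the core of the interferon-stimulated response element (GAAA, any 2 bases, GAAA) and to the AP-1 site TGANTCA, each searched on both strands. Cxcl1 lies at chr5:90890995-90891244 on the plus strand, Cxcl10 at chr5:92348890-92349139 on the minus strand and Ccl3 at chr11:83649379-83649628 on the minus strand.
Cxcl1: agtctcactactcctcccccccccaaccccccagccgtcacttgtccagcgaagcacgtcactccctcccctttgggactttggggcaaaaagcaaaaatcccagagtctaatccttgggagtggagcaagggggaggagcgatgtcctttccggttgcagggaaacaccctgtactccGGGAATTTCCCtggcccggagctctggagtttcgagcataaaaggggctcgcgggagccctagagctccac
Cxcl10: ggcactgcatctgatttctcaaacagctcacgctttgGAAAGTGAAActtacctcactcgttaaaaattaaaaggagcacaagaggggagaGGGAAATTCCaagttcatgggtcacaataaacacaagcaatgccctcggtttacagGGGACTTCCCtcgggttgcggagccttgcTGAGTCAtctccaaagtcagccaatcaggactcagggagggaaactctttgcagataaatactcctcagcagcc
Ccl3: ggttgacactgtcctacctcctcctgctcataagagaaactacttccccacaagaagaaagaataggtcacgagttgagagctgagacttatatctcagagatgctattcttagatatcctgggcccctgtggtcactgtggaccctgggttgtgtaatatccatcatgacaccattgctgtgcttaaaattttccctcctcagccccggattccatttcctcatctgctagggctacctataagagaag

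The Cxcl1 stretch held overlapping NF-κB matches on the plus and minus strands, from base 71 to base 61 before the start. Cxcl10 held 2 NF-κB matches, beginning 159 and 103 bases before the start, the interferon element core at 213 and an AP-1 match at 74. No match to the 3 motifs was found in the Ccl3 window, which says only that these letters are absent from it. Among all 32851 promoter windows of this length, 3.9% held the NF-κB consensus, 2.98% the interferon element core and 6.75% the AP-1 site. These matches describe the sequence and were not measured as binding in MCT cells.

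Cxcl1 was lower with CsA, by more than any of the other 3 genes. The cycle of threshold (Ct), which comes later the less template there is, was 21.83 for untreated cells, 22.70 for CsA, 22.03 for 11R-VIVIT and 22.34 for SB203580. The untreated sample was the highest of the 4 and every treated sample lay below it, also relative to the array median and without a reference. Relative to Actb (beta-actin), the Ct difference was 3.71 for untreated cells, 4.85 for CsA, 3.90 for 11R-VIVIT and 4.53 for SB203580. The level with CsA was 0.453-fold that of untreated cells (log2 change -1.14), and that with SB203580 0.566-fold (log2 change -0.82). With 11R-VIVIT it was 0.875-fold (log2 change -0.19). These Ct values lay between 12.3 and 13.2 cycles before the detection limit of 35, so Cxcl1 was measured far from the late cycles in which few template molecules remain. Without a reference gene the CsA change of Cxcl1 was -0.87, short of 2-fold, and relative to the median of the array genes it was -1.64.

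**Figure D1:**
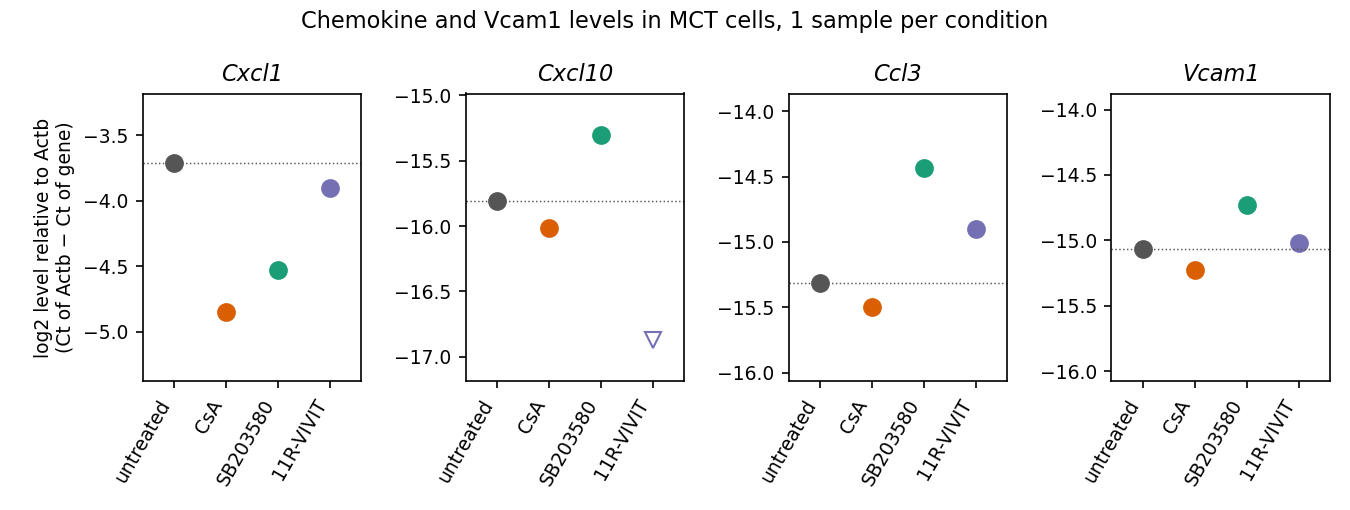
Log2 level relative to Actb (the Ct of Actb minus that of the gene) of each gene in the 4 conditions, 1 sample each; every panel spans the same height in log2 units, the dotted line is the untreated sample and the open triangle is an upper bound for a Ct past 35. Cxcl1 was lowest with CsA, while Cxcl10, Ccl3 and Vcam1 were highest with SB203580.

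Cxcl10 amplified late in all samples. Its Ct was 33.93 for untreated cells, 33.86 for CsA, 35.03 for 11R-VIVIT and 33.11 for SB203580. The SB203580 sample was the highest and the 11R-VIVIT sample the lowest. The latter was 0.0266 cycles past the limit of 35 and is therefore a bound. The level with 11R-VIVIT was at most 0.479-fold that of untreated cells (log2 change at most -1.06), or -0.98 if each cycle multiplies the product by 1.9 rather than 2. The untreated and CsA samples were close to each other, at 15.81 and 16.02 cycles from Actb, a log2 change of -0.21. With SB203580 the level was 1.42-fold (log2 change 0.51).

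Ccl3, a late gene too, had a Ct of 33.43 for untreated cells, 33.34 for CsA, 33.03 for 11R-VIVIT and 32.24 for SB203580. The SB203580 sample was again the highest, followed by 11R-VIVIT, untreated cells and CsA, the last 2 of which changed places without a reference gene. The level with SB203580 was 1.84-fold that of untreated cells (log2 change 0.88), which is under 2-fold, and it passed 2-fold (1.18) without a reference gene. With 11R-VIVIT it was 1.33-fold (log2 change 0.41) and with CsA 0.879-fold (log2 change -0.19).

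Vcam1 varied least of the 4 genes, over 0.499 cycles relative to Actb, against 1.06 for Ccl3, 1.14 for Cxcl1 and at least 1.57 for Cxcl10. Its Ct was 33.18 for untreated cells, 33.07 for CsA, 33.15 for 11R-VIVIT and 32.54 for SB203580. The order of the samples was that of Ccl3, with SB203580 highest and, relative to Actb, CsA lowest. The untreated and 11R-VIVIT samples, neighbours in this order, differed by 0.0455 cycles relative to Actb. The level was 0.895-fold with CsA, 1.03-fold with 11R-VIVIT and 1.27-fold with SB203580. In bulk RNA, fewer cells that express a gene and less RNA per cell cannot be told apart, which holds for all of these values.

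The late position of Cxcl10, Ccl3 and Vcam1 limits their precision. Their 11 values before the limit lay 1.07 to 2.76 cycles from it. Of the whole array, 13 genes, Ccl3 and Vcam1 among them, had a Ct from 32 to 35 in all 4 samples. The median size of the log2 change of these 13 was 0.72 with CsA, 0.31 with 11R-VIVIT and 0.67 with SB203580. The changes of Cxcl10, Ccl3 and Vcam1 with CsA (-0.21, -0.19 and -0.16) were smaller than this median. With SB203580 that of Ccl3 (0.88) was larger, and those of Cxcl10 (0.51) and Vcam1 (0.34) were smaller. With 11R-VIVIT the change of Vcam1 (0.05) was smaller and those of Ccl3 (0.41) and Cxcl10 (at most -1.06) were larger in size. Genes past 35 in any sample, as Cxcl10 was with 11R-VIVIT, were left out of the 13 by rule. The comparison of Cxcl10 with their median is therefore uneven. Each gene has 1 value per sample, so the well-to-well error of these late assays is unknown.

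A change of at least 2-fold served as the rule of size, since no test was possible. With CsA, 1 of the 4 genes was lowered at least 2-fold, namely Cxcl1, where 16.2% of the 80 array genes with a value were lowered as much. None of the 4 was raised at least 2-fold by CsA, where 20% of the array genes were. With SB203580, 0 of 4 were raised and 0 lowered at least 2-fold, against 15.2% and 8.86% of 79 array genes. With 11R-VIVIT, 0 of 4 were raised and 1 was lowered, Cxcl10 by its bound, against 5.26% and 3.95% of 76 array genes. A count of 1 in 4 rests on a single gene and cannot be told from these shares. The median log2 change of the 4 genes was -0.20 with CsA, -0.07 with 11R-VIVIT and 0.42 with SB203580, beside 0.15, -0.02 and 0.27 over all array genes with a value. All 4 genes lay below untreated cells with CsA, where 37 of 80 array genes did. Of the 13 genes with a Ct from 32 to 35, 7 lay below with CsA, and their median log2 change was -0.16, near the values of Cxcl10, Ccl3 and Vcam1. With SB203580, Cxcl10, Ccl3 and Vcam1 lay above untreated cells and Cxcl1 below. Of the array genes 47 of 79 lay above with SB203580, and so did 11 of the 13 genes with a Ct from 32 to 35, whose median log2 change was 0.67. For ranks, the bounds of all genes were taken as values. Ranked from the lowest change, Cxcl1 was number 10 of 80 genes with CsA and number 9 of 79 with SB203580. Cxcl10, by its upper bound, was number 2 of 76 with 11R-VIVIT, where Fmo2 had an upper bound too (-0.23) and could lie lower. Ccl3 was number 16 of 79 from the highest with SB203580. The comparisons share the untreated sample, so they are not independent of each other.

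**Figure D2:**
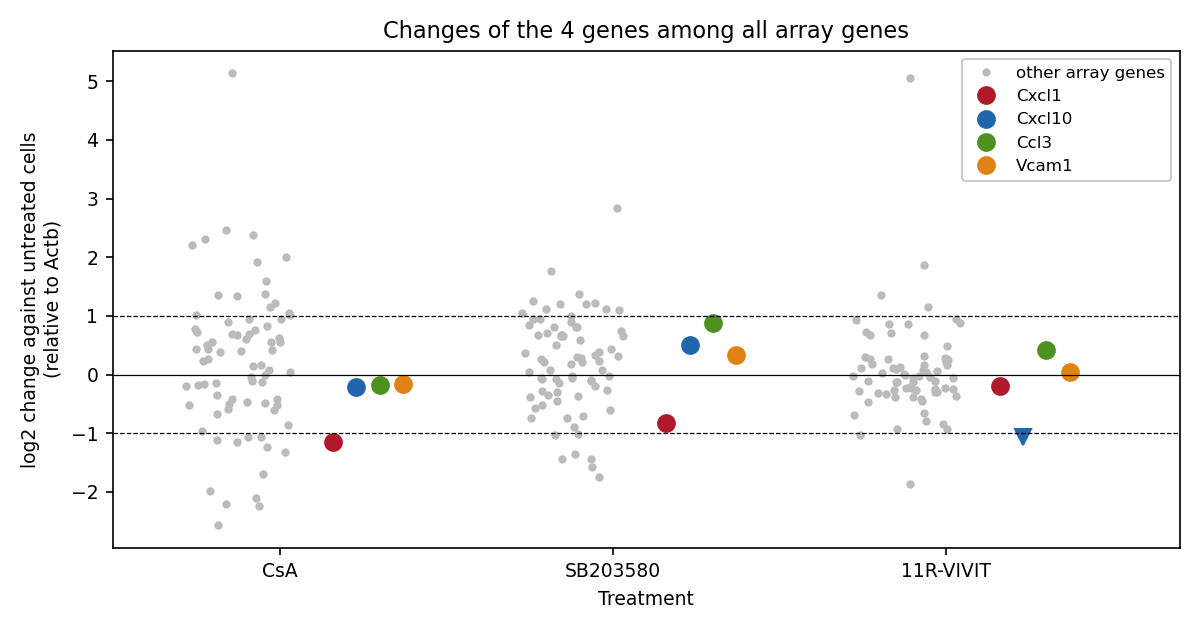
Log2 change against untreated cells, relative to Actb, with each treatment for the 4 genes (coloured) and all other array genes with a value (grey, bounds included), 1 sample per condition; dashed lines mark 2-fold and the triangle is an upper bound. Cxcl1 with CsA and Cxcl10 with 11R-VIVIT lie below the lower dashed line, and the other changes of the 4 genes lie between the lines.

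The choice of reference moved the CsA values most. Compared with untreated cells, Actb itself came 0.27 cycles earlier with CsA, 0.31 earlier with SB203580 and 0.01 later with 11R-VIVIT. Measured against the array median, taken over the 69 genes with a Ct below 35 throughout, every log2 change with CsA was 0.50 lower than with Actb, with SB203580 0.09 lower and with 11R-VIVIT 0.01 higher. The CsA changes of Cxcl10, Ccl3 and Vcam1 then became -0.71, -0.68 and -0.66. With no reference they were 0.0655, 0.0867 and 0.1141, above 0, so their direction with CsA depended on the reference. With SB203580, Cxcl10, Ccl3 and Vcam1 lay above untreated cells and Cxcl1 below with all 3 references. With 11R-VIVIT, Cxcl1 and Cxcl10 lay below and Ccl3 and Vcam1 above with all 3.

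**Figure D3:**
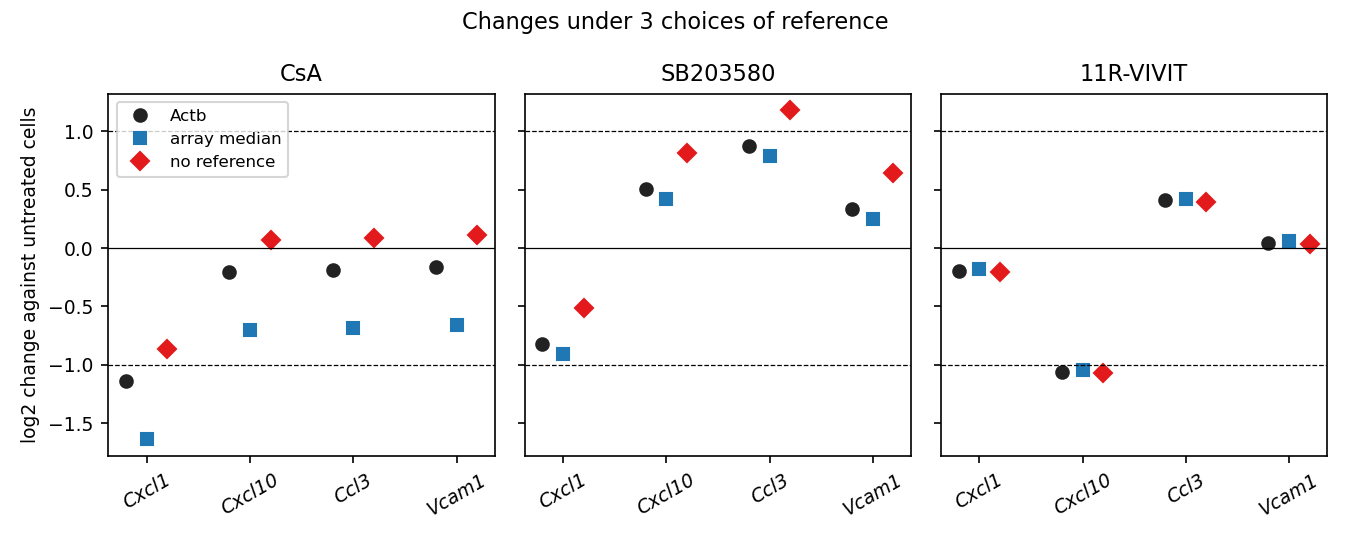
Log2 change of each gene against untreated cells with 3 references, namely Actb (circles), the array median (squares) and none (diamonds), 1 sample per condition; dashed lines mark 2-fold, and the Cxcl10 values with 11R-VIVIT are upper bounds. Symbols for CsA spread most, and those of Cxcl10, Ccl3 and Vcam1 fall on both sides of 0.

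The gap in Ct between 2 genes of the same sample needs no reference gene. Between Cxcl1 and Ccl3 it was 11.60 cycles for untreated cells, 10.65 for CsA, 10.998 for 11R-VIVIT and 9.90 for SB203580. Ccl3 thus moved up relative to Cxcl1 in each treated sample, 3.24-fold with SB203580, 1.94-fold with CsA and 1.52-fold with 11R-VIVIT. The gap between Cxcl1 and Vcam1 was 11.36 cycles in untreated cells and narrowed to 10.37 with CsA, 11.12 with 11R-VIVIT and 10.20 with SB203580. Vcam1 moved up relative to Cxcl1 by 1.98-fold with CsA and 2.23-fold with SB203580. That between Cxcl1 and Cxcl10 was 12.10 cycles for untreated cells, 11.17 for CsA, 10.77 with SB203580 and, as a lower bound, 12.97 with 11R-VIVIT. Cxcl10 moved up relative to Cxcl1 by 1.91-fold with CsA and 2.51-fold with SB203580 and down by at least 1.83-fold with 11R-VIVIT. Between Cxcl10, Ccl3 and Vcam1 the gaps with CsA differed from those of untreated cells by 0.0212 to 0.0486 cycles. Although the well-to-well error of these late assays is unknown, by their single values these late genes kept nearly the same proportions with CsA. It follows from these gaps that they moved relative to Cxcl1 by almost the same amount, which is no separate observation. With 11R-VIVIT, Cxcl10 parted from them, lower by at least 2.77-fold relative to Ccl3 and at least 2.15-fold relative to Vcam1. A gap shows unequal change and not which of the 2 genes moved.

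**Figure D4:**
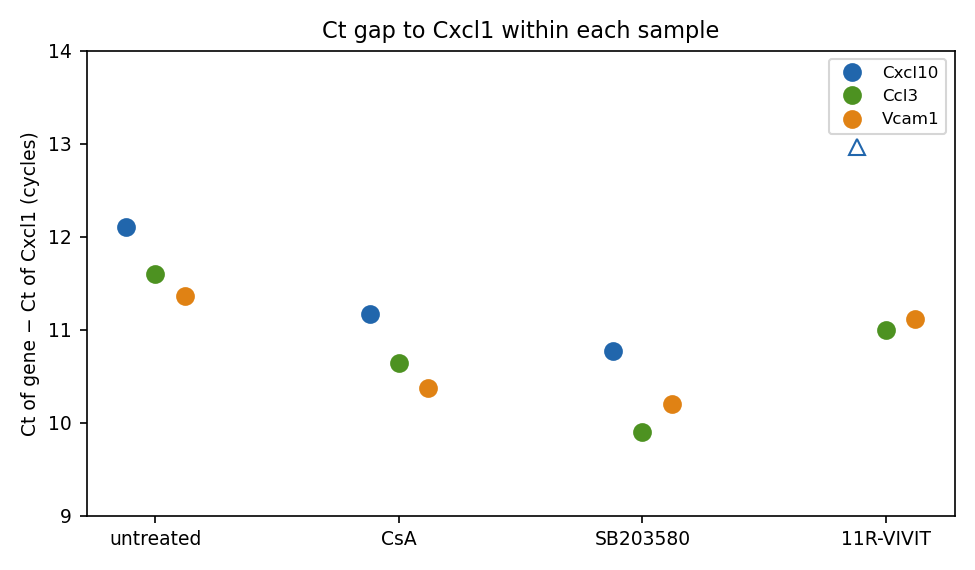
Ct of Cxcl10, Ccl3 and Vcam1 minus the Ct of Cxcl1 in the same sample, in cycles, for the 4 conditions with 1 sample each; the axis does not start at 0 and the open triangle is a lower bound. The gaps are narrower with CsA and SB203580 than in untreated cells, and the gap of Cxcl10 is widest with 11R-VIVIT.

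The treated samples were also set against each other, which leaves out the untreated sample. Between CsA and SB203580 all 4 genes were lower with CsA, with log2 differences of -0.32 for Cxcl1, -0.71 for Cxcl10, -1.06 for Ccl3 and -0.50 for Vcam1. Only Ccl3 differed at least 2-fold (2.09-fold, or a log2 difference of -0.99 with the base of 1.9), so 1 of 4 did by the Actb reference, where 30.9% of 81 array genes differed as much in either direction. With the array median as reference Cxcl10 (-1.12) passed 2-fold too, where 22 array genes were lower with CsA and 7 higher. The median difference of the 4 genes was -0.61, beside 0.02 over the array and -0.57 over the 13 genes with a Ct from 32 to 35, of which 11 were lower with CsA. Between CsA and 11R-VIVIT, Cxcl1 (-0.95), Ccl3 (-0.60) and Vcam1 (-0.20, but 0.08 without a reference) were lower with CsA and Cxcl10 was higher by at least 0.85 on the log2 scale. By these values and this bound, which can hold a larger difference for Cxcl10, 0 of the 4 reached 2-fold, where 38% of 79 array genes did. With the array median as reference, Cxcl1 (-1.46) and Ccl3 (-1.11) passed 2-fold, where 21 array genes were lower with CsA and 12 higher. Without a reference Cxcl10 did (at least 1.14), where 27 array genes were higher with CsA and 10 lower. Between SB203580 and 11R-VIVIT, Cxcl10 was at least 2.96-fold higher with SB203580 and 1 of 4 genes reached 2-fold, where 21.2% of 80 array genes did. Ccl3 (0.47) and Vcam1 (0.29) were higher with SB203580 and Cxcl1 (-0.63) was lower.

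The array genes whose pattern was most like that of each gene were found by the root mean square difference of their Actb-relative values over the 4 samples, each gene centred on its own mean. For Cxcl1 they were Mcm6, a subunit of the replicative helicase (0.171 cycles), the growth factor Bmp4 (0.249) and Egf, a growth factor of the distal tubule (0.285). For Cxcl10, with its bound taken as its value, they were Klk1b3 (0.267), Rgn (0.314) and Gatm, an enzyme of creatine synthesis (0.352). With CsA, Rgn (0.50) and Gatm (0.27) lay above untreated cells where Cxcl10 lay below, while with the other treatments they shared its direction. For Ccl3 they were Bhmt, an enzyme of methionine metabolism (0.155), the heme oxygenase Hmox2 (0.171) and Vcam1 (0.241). For Vcam1 they were Cp, which encodes ceruloplasmin (0.067), the chaperone Hsp90aa1 (0.137) and Bmp1 (0.223). Hsp90aa1 and Bmp1 lay below untreated cells with CsA, as Vcam1 did, but also with SB203580 (-0.03 and -0.19) and 11R-VIVIT (-0.23 and -0.27), where Vcam1 lay above. A small difference by this measure can thus come from small changes without a shared direction. Cp, at a Ct of 27.19 in untreated cells, had log2 changes of -0.19 for CsA, 0.16 for 11R-VIVIT and 0.27 for SB203580. Ccl3 and Vcam1 were thus the closest pair among the 4 genes, while Cxcl1 and Cxcl10 were the farthest apart (0.852). This likeness rests on 4 samples and is a description.

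With CsA, the array genes of an inflammation list mostly lay above untreated cells, where the chemokines and Vcam1 lay below relative to Actb. The list was chosen with earlier results of these data known and does not stand for every array gene with a link to inflammation. Of the 27 inflammation, cytokine and adhesion genes in the list, the array held 9. Its other chemokines and cytokines Ccl2, Ccl5, Cxcl2, Tnf, Il1b and Il6 were not on the array. With CsA, 4 of them were raised at least 2-fold and 0 lowered, beside the 20% of array genes raised, and the median log2 change of the list was 0.89, beside 0.15 over the array. The raised genes were Ctss, a lysosomal protease (1.36), Lgals3, which encodes galectin-3 (1.35), Tnfrsf12a, which encodes Fn14 (1.15), and Spp1, which encodes osteopontin (1.06). Lcn2, the iron carrier NGAL of injured tubules, was at 0.89, A2m, a protease inhibitor, at 0.78 and Cd44, a hyaluronan receptor, at 0.76. Fgb, a fibrinogen chain, and Gpnmb were past the limit in untreated cells and had lower bounds of 0.08 and -0.0064. Relative to the array median, 0 of the 9 reached 2-fold with CsA and the median of the list was 0.40. Without a reference 7 of the 9 were raised at least 2-fold with CsA, beside 22 array genes, and the median of the list was 1.17. Cxcl10, Ccl3 and Vcam1 then lay above untreated cells too (0.0655, 0.0867 and 0.1141), so the contrast with the list held in direction only for Cxcl1. With SB203580, 3 of 9 were raised at least 2-fold (Ctss 1.25, Spp1 1.11 and Fgb by its bound of 1.05) and 0 lowered, beside 15.2% of array genes raised, with a median of 0.84 beside 0.27. Relative to the array median Ctss (1.16) and Spp1 (1.02) were past 2-fold and the bound of Fgb was 0.96. With 11R-VIVIT, 1 of 8 with a value was raised (Ctss 1.35) and 0 lowered, beside 5.26% of array genes raised, with a median of 0.07 beside -0.02. For Lgals3 the log2 change was 0.06 with 11R-VIVIT and 0.51 with SB203580, and for Lcn2 it was -0.02 and 0.17.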

How the data were processed

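RNA from MCT cells was extracted with TRIzol, the same amount was reverse transcribed, and expression was measured by the authors with SYBR green on an RT2 Profiler PCR array. The authors deposited the raw Ct per gene and sample, without normalization. A second deposited table holds the authors' fold changes against the control and was not used. Instrument, baseline and threshold are not given in the sources used here. The arrays number 1 per condition, which limits the precision.

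The study's methods name the housekeeping genes of the array as reference. Of these, Actb is in the analysed table, and each Ct was set relative to it alone. Differences between samples were taken as log2 changes with an amplification base of 2. A Ct of 35 or more was set to 35 and gives a bound, and genes at the limit in both samples have no value. The named genes are the 4 genes, Actb, the inflammation and cell type lists as far as they are on the array, and the 3 genes most like each of the 4. Members, lists and gaps between genes were chosen with earlier results of these data known. Alternatives were other references, Ct limits of 32 or none, a base of 1.9 and thresholds of 1.5-fold and 3-fold. The functions were tested on simulated data. Motifs were searched in RefSeq promoters of GRCm38.p6. Python 3.11.15, numpy 2.4.6 and matplotlib 3.10.9 were used.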

Additional observations from a re-analysis of the deposited data

How the results depend on the processing

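Of 102 recalculated changes and differences of the 4 genes, 90 had the same sign and lay on the same side of 2-fold. Of the others, 5 passed 2-fold, 3 no longer did and 4 changed sign. The count of 90 is no measure of stability, because many values could not move. Another Ct limit leaves a value measured before both limits as it was. The lower amplification base shrinks all changes by the same factor, so it can bring a value under 2-fold but cannot change a sign. All 4 changes of sign arose without a reference gene. All 5 values that passed 2-fold did so with the array median or without a reference. A Ct limit of 32 left 18 of 24 without a value, all but those of Cxcl1. With no Ct limit no change of the 4 genes lost its sign or its side of 2-fold. No paired analysis was possible because each condition has 1 sample, and no replicate could be left out. The cause of a change was not tested, apart from thresholds, which change counts by construction.

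Relative to the array median, 8 array genes (16 with Actb) were raised by CsA and 20 (13 with Actb) were lowered. The median of the 4 genes between CsA and SB203580 was -1.02 with 2 of them lower in place of 1, beside 22 array genes (15 with Actb). In place of 0, 2 of the 4 were lower with CsA than with 11R-VIVIT, beside 21 array genes (12 with Actb).

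Without a reference, the CsA changes were -0.87 for Cxcl1, 0.0655 for Cxcl10, 0.0867 for Ccl3 and 0.1141 for Vcam1, with a median of 0.0761. CsA then lowered 0 of the 4 genes and 7 array genes. Ccl3 reached 1.18 with SB203580 so that 1 of the 4 and 22 array genes in place of 12 were raised. Between CsA and 11R-VIVIT, 1 of the 4 was higher with CsA, beside 27 array genes, and Vcam1 was at 0.0807.

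With the Ct limit of 32, CsA lowered 8 array genes and 11R-VIVIT raised 1 in place of 4. At a base of 1.9, Cxcl10 with 11R-VIVIT was at most -0.98, so that 0 of the 4 genes and 1 array gene in place of 3 were lowered. Lower with CsA than with SB203580 were then 0 of the 4, beside 14 array genes.

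At 1.5-fold, the array genes raised numbered 28 for CsA, 29 for SB203580 and 13 for 11R-VIVIT, and those lowered 13 for SB203580 (7 at 2-fold) and 9 for 11R-VIVIT. Of the 4 genes, SB203580 then raised 1 and lowered 1. Lower with CsA than with SB203580 were 2 of the 4, beside 22 of 81 array genes lower and 25 higher. Between CsA and 11R-VIVIT, 1 was higher and 2 lower with CsA, beside 28 of 79 array genes higher and 20 lower. Between SB203580 and 11R-VIVIT, 1 was lower with SB203580, beside 12 of 80 array genes lower and 22 higher. Such counts in 4 genes cannot be told from these shares. At 3-fold, the array genes raised numbered 8 for CsA, 2 for SB203580 and 2 for 11R-VIVIT, those lowered 6, 1 and 1, and 0 of the 4 genes were past the threshold by their values and bounds. The bound of Cxcl10 between SB203580 and 11R-VIVIT (1.57) lies just short of 3-fold and does not settle it. With no Ct limit this difference was 1.59.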
